A study of Homo sapiens with 6 samples.

Results

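The mitochondrial ribosomal proteins are the nuclear-encoded proteins that join mitochondrially encoded ribosomal RNA to form the mitoribosome. Their genes were taken as every gene whose symbol is MRPL or MRPS followed by a number and, at most, a letter from A to C. This gave 76 genes of 36932 with a symbol of their own, 48 named MRPL for the large subunit and 28 named MRPS for the small one. A further 79 symbols that begin in the same way, 73 of them pseudogenes, were left out by this rule. The mRNA of MDA-MB-231, an established human cell line of triple negative breast cancer, was sequenced in 6 libraries. The groups were control cells and 2 colonies of DDX18 knockdown cells, here colony 1 and colony 2, with 2 libraries each. The labels do not say how the knockdown was made, what the control cells carried, or whether replicates came from separate cultures, so p-values measure the spread between libraries, which may be technical. DDX18 is a nucleolar RNA helicase that takes part in making cytosolic ribosomes, and the series asked how the transcriptome differs after its loss.

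Mitoribosomes translate the small set of membrane proteins encoded in mitochondrial DNA, all of them subunits of the oxidative phosphorylation complexes. Their proteins are made on cytosolic ribosomes, imported and assembled on the mitochondrial RNAs, so production depends on genes in both genomes. Some of the proteins have bacterial counterparts, while others arose in the mitochondrial lineage. Symbols do not always match the structure. MRPS30 and MRPS18A sit in the large subunit of the human mitoribosome, and MRPS36 has been reassigned to the alpha-ketoglutarate dehydrogenase complex.

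Values are CPM, that is, the reads of a gene scaled by library size. The steps between CPM values implied 8843847 to 11902437 reads per library in the deposited rows. The CPM of these rows summed to between 956008 and 984969, so the libraries were somewhat larger. DDX18 stood at 78.8 and 91.7 CPM in the controls, compared with 17.6 and 14.04 for colony 1 and 14.7 and 15.1 for colony 2. Every knockdown library lay far below both controls, and the log2 change was −2.40 (SE 0.11, limma adjusted p = 3.88e-15). All 8 genes listed as high in the line were at 62.8 CPM or more in every library, VIM highest (1739 to 1803 CPM). Of the listed luminal, receptor and other cell type markers, PGR and KRT5 were at 0, and ESR1, FOXA1 and PTPRC stayed below 1 CPM. The receptor gene ERBB2 (102 to 134 CPM) and the keratins KRT8 (705 to 1201 CPM) and KRT18 (225 to 347 CPM) were not low, although the list holds them as such. Also listed as low, GATA3 (21.3 to 27.4 CPM) and EPCAM (13.7 to 16.9 CPM) were expressed in every library, and CDH1 reached at most 4.22 CPM. FOSL1 (1.21, limma adjusted p = 2.59e-11), EGFR (0.85, limma adjusted p = 5.85e-12) and CDH1 (0.69, limma adjusted p = 0.00827, or 0.12 without control replicate 2) were higher in knockdown and KRT8 was lower (−0.65, limma adjusted p = 8.42e-11).

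Promoters are shown here for 4 genes at the ends of the range of changes, MRPS10 and MRPS30 with the largest rises and MRPL46 and MRPS18A among the falls. Each sequence is RefSeq's window on GRCh38.p14 from 250 bases before the annotated start to 50 bases after it. Capitals mark matches on either strand to the motif cores of NRF1 (TGCGCA), of the ETS family with GABPA (CCGGAAG), of YY1 (AAGATGG) and of SP1 (GGGCGG).
MRPS10, chr6:42217812-42218111, minus strand: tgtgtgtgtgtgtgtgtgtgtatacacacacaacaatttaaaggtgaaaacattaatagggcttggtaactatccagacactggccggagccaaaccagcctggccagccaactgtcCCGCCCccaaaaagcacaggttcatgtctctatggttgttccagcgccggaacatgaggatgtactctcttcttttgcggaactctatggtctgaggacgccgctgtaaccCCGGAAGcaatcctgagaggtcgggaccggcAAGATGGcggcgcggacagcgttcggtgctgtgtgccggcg
MRPS30, chr5:44808697-44808996, plus strand: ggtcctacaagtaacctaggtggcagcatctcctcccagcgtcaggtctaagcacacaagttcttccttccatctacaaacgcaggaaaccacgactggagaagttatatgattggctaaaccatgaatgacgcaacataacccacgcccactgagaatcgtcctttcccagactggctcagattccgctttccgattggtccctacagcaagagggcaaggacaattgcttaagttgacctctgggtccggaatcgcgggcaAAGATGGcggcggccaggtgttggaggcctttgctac
MRPL46, chr15:88467339-88467638, minus strand: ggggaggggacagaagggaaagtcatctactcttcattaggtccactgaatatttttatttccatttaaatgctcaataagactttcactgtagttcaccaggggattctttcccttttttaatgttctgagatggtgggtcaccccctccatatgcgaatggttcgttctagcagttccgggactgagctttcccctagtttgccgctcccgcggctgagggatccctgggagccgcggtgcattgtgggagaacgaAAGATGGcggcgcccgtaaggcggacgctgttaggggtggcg
MRPS18A, chr6:43687742-43688041, minus strand: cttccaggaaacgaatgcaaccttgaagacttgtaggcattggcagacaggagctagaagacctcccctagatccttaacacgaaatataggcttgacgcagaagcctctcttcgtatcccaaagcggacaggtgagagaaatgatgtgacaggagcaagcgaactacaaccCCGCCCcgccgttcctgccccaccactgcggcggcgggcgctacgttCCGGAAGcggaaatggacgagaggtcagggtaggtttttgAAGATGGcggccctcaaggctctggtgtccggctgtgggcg

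MRPS10, which rose, and MRPS18A, which fell, each held 1 SP1, 1 ETS and 1 YY1 core in this window. MRPS30 and MRPL46, again a rise and a fall, each held 1 YY1 core alone. MRPL46 lies head to head with MRPS11, which rose, and the windows of this pair share 181 bases. Windows could be had for 67 of the 76 genes. The ETS core was found in 28 of them (41.8%), against 10.7% of all 27305 promoters in the table and 19.1% of those of tested genes. The YY1 core was found in 22 (32.8%, against 6.06% and 7.52%), the NRF1 core in 13 (19.4%, against 8.42% and 13.5%) and the SP1 core in 41 (61.2%, against 44.6% and 69.3%). Among the genes called higher after knockdown, 5 of 17 windows held the ETS core and 7 of 17 the YY1 core. Among those called lower the counts were 4 of 8 and 3 of 8, and among those tested and not called 18 of 40 and 11 of 40. The NRF1 core was held by 4 of 17 called higher, 2 of 8 called lower and 7 of 40 not called. For the SP1 core these counts were 9 of 17, 6 of 8 and 25 of 40. A match is a run of letters and not a measured binding site.

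Of the 76 genes, 74 had a mean of at least 1 CPM and were tested, and 68 had at least 10 CPM in every library. The median gene held 37.8 CPM in the controls, against 28.3 CPM over all tested genes. Set per kilobase of annotated exon, the highest control levels belonged to MRPL14, a protein of the face between the subunits, MRPL33 and MRPL24. MRPL14 stood at 107 and 109 CPM per kilobase in the controls, MRPL33 at 85.6 and 90.6, and MRPL24 at 55.8 and 58.5. The intervals spanned by these 3 pairs of controls did not overlap. At the other end of the tested genes were MRPL38, with 1.19 and 0.795 CPM per kilobase, MRPS17, with 1.61 and 1.68, and MRPL46, with 2.12 and 1.76. These low values rested on few reads, 15 to 27 per library for MRPL38 and 11 to 33 for MRPL46. MRPS24 (0.511 to 1.11 CPM) and MRPL30 (0 in 5 libraries and 0.101 CPM in the other) were not tested.

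**Figure D1:**
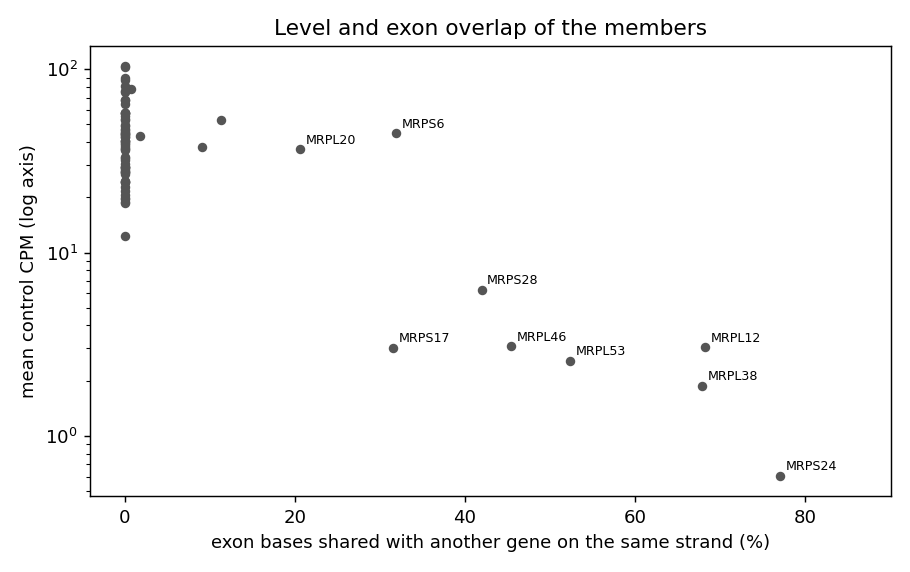
Mean control level of each gene (CPM, log axis) against the percentage of its exon bases that another gene shares on the same strand. MRPL30 is not drawn because it was at 0 in both controls, and all genes with more than 40% of their exon bases shared lay below 10 CPM.

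Low levels went with overlapping annotation, as the plot of level against exon overlap shows. In GENCODE release 29, 68.2% of the exon bases of MRPL12, 67.8% of those of MRPL38, 52.3% of those of MRPL53 and 77.0% of those of MRPS24 belong to another gene on the same strand as well. MRPS24 shares them with the readthrough gene URGCP-MRPS24, which was itself at 0 in all 6 libraries. In all, 35 of the 76 genes share some exon sequence with another gene on either strand, and 18 share at least 20%. The handling of reads shared between genes, and of strand, is not given in the sources used here, so the values of these 18 genes are uncertain. MRPS6 and MRPL20 stood above 30 CPM in the controls although 31.9% and 20.6% of their exon bases are shared in this way. The part of the overlaps in the low levels was not tested.

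Knockdown was first compared with control over both colonies together. Of the 74 genes, 18 were higher and 9 lower at an adjusted p under 0.05, whereas 23.2% of all 13675 tested genes were called higher and 21.5% lower. The rises made up 24.3% of the 74, close to the share over all genes, and the falls 12.2%, below it. In either direction 36.5% of the 74 and 44.7% of all genes were called. The median log2 change over the 74 was 0.10, against 0.005 over all genes. All 4 knockdown libraries lay above both controls for 18 of the 74 and below both for 11, where 27.8% and 25.8% of all tested genes did so. In RNA from whole cultures, a change in the share of cells that express a gene cannot be told apart from a change per cell. Replicates also differed within groups. In the controls 73.0% of the 74 were higher in replicate 2 than in replicate 1 (median log2 difference 0.064). This share was 60.8% in colony 1 and 66.2% in colony 2. Over all tested genes the 3 shares were 50.7%, 52.2% and 46.4%. Without control replicate 1 the number of rises was 9, and without control replicate 2 the number of falls was 4.

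**Figure D2:**
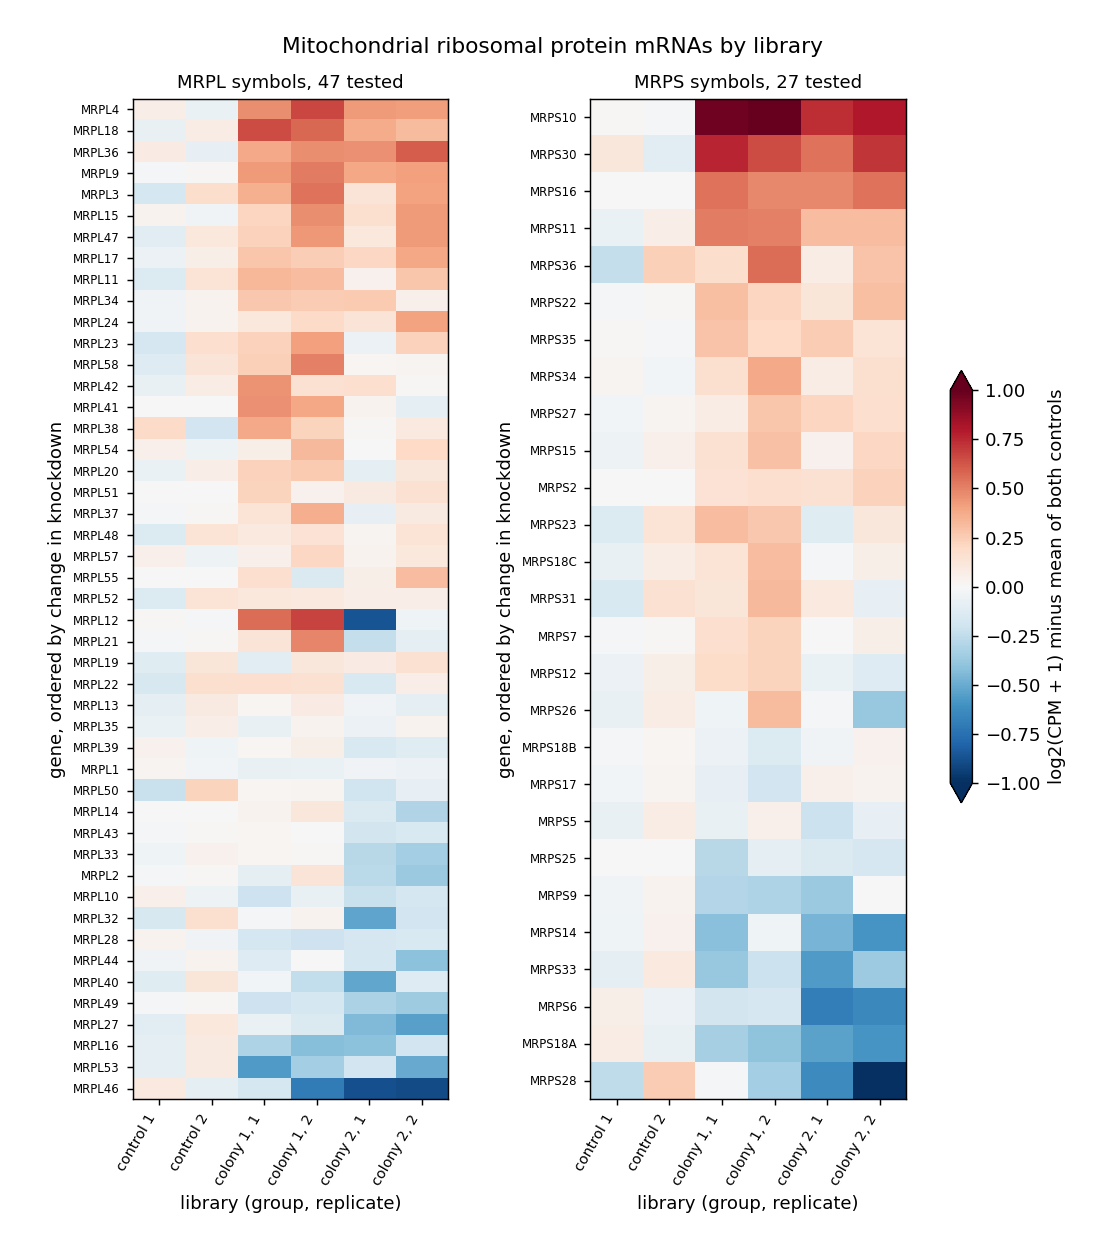
Difference of log2(CPM + 1) from the mean of both controls for the 74 tested genes (rows) in each library (columns), MRPL left and MRPS right, ordered by the change in knockdown. Most genes stay pale, while MRPS10 and MRPS30 are above the controls in all 4 knockdown libraries and MRPL12 differs in sign between the colonies. The change of MRPL12 from control was not called in either colony.

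The leading change was that of MRPS10, a protein of the head of the small subunit, on chromosome 6 (42206801 to 42217865, minus strand, GRCh38). It held 103 and 101.3 CPM in the controls, compared with 201 and 207 for colony 1 and 171 and 179 for colony 2. The knockdown libraries lay well clear of the controls, and colony 1 lay above colony 2. The mean was 1.85 times the control, with a log2 change of 0.88 (SE 0.06, limma adjusted p = 9.55e-12). The colony means were 199% of control in colony 1 and 171% in colony 2. Colony 2 minus colony 1 was not called (−0.22, limma adjusted p = 0.11), though it was with the replicate number as a block (adjusted p = 0.00825).

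MRPS30, a large subunit protein in the structure, came next with 31.2 and 26.4 CPM in the controls, compared with 49.4 and 45.7 for colony 1 and 42.3 and 47.8 for colony 2. The colonies overlapped each other and not the controls (log2 change 0.67, SE 0.10, limma adjusted p = 2.43e-06). MRPS16, a small subunit protein with a bacterial counterpart, held 77.9 CPM in either control, 114 and 109 in colony 1 and 109 and 114 in colony 2. This rise was of the same size in each colony (log2 change 0.51, SE 0.07, limma adjusted p = 6.08e-07). MRPS11, a protein of the platform of the small subunit, held 18.9 and 20.8 CPM, then 28.8 and 28.6 in colony 1, and 24.8 and 24.9 in colony 2 (log2 change 0.41, SE 0.11, limma adjusted p = 0.0026). It was highest in colony 1, though its call in colony 2 (limma adjusted p = 0.0463) was lost whichever library was left out, other than control replicate 2, with an adjusted p of up to 0.222 (without control replicate 1).

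Among the MRPL genes, the rises of MRPL4, MRPL18, MRPL36 and MRPL9 were of like size. MRPL4, a protein with a bacterial counterpart that reaches into the wall of the exit tunnel in bacteria, held 55.6 and 50.7 CPM in the controls, compared with 73.8 and 85.2 for colony 1 and 71.7 and 71.3 for colony 2 (log2 change 0.50, SE 0.08, limma adjusted p = 1e-05). MRPL18, of the central protuberance, held 30.2 and 33.6 CPM, then 50.8 and 48.1, and 41.6 and 39.9 (log2 change 0.48, SE 0.09, limma adjusted p = 9.33e-05). Both were above the controls in every knockdown library, and MRPL18 was higher in colony 1 than in colony 2 without the difference being called (−0.27, limma adjusted p = 0.204). MRPL36 held 21.7 and 19.3 CPM, then 26.8 and 28.6, and 28.4 and 31.6 (log2 change 0.47, SE 0.11, limma adjusted p = 0.000683). MRPL9 held 37.5 and 37.9 CPM, then 51.1 and 54.4, and 49.6 and 50.4 (log2 change 0.44, SE 0.08, limma adjusted p = 0.000122). Of the exon bases of MRPL9, 46.8% are shared with other genes, most of them on the opposite strand, and for MRPL4 the share is 26.1%.

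**Figure D3:**
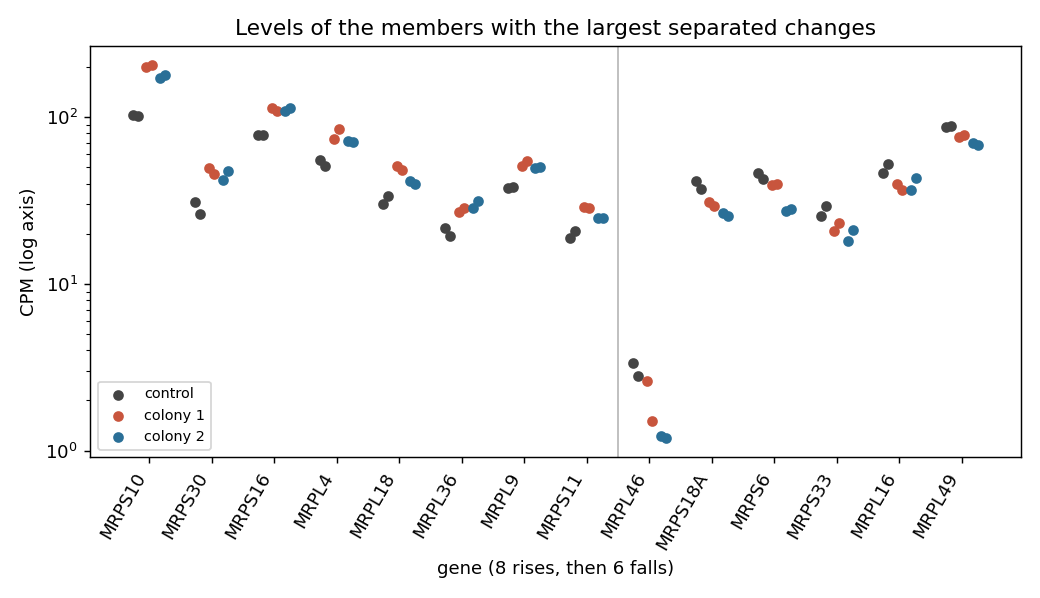
CPM in each library (log axis) of the 8 genes with the largest rises and the 6 with the largest falls among called genes whose 4 knockdown libraries all lay beyond both controls. Points of a gene are grouped as control, colony 1 and colony 2, with 2 replicates each, and MRPL46 lies lowest, at 3.37 CPM or less in every library.

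The falls were smaller in number and in most cases deeper in colony 2. MRPS18A, a large subunit protein in the structure, held 41.2 and 37.1 CPM in the controls, compared with 30.9 and 29.3 for colony 1 and 26.6 and 25.6 for colony 2. The 3 groups did not overlap (log2 change −0.47, SE 0.10, limma adjusted p = 0.000348), although 56.9% of its exon bases lie opposite exons of RSPH9. MRPS6, a small subunit protein with a bacterial counterpart, held 46.6 and 42.7 CPM, then 39.1 and 39.6, and 27.2 and 28.2 (log2 change −0.42, SE 0.09, limma adjusted p = 0.000504). It was called in colony 2 (−0.67, limma adjusted p = 1.45e-05) and not in colony 1 (−0.18, limma adjusted p = 0.198). MRPL49, a mitochondria-specific protein of the large subunit, held 86.8 and 88.6 CPM, then 76.02 and 77.7, and 70.1 and 68.4 (log2 change −0.26, SE 0.07, limma adjusted p = 0.00337). It too was called in colony 2 (−0.34, limma adjusted p = 0.00157) and not in colony 1 (−0.19, limma adjusted p = 0.0674).

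MRPL16, which lies near the peptidyl transferase centre, held 46.2 and 52.4 CPM in the controls, compared with 39.5 and 36.4 for colony 1 and 36.8 and 43.0 for colony 2. Its fall (log2 change −0.33, SE 0.09, limma adjusted p = 0.00493) rested on control replicate 2, without which the adjusted p was 0.103. MRPS33, of the head of the small subunit, held 25.4 and 29.3 CPM, then 20.8 and 23.3, and 18.2 and 20.97 (log2 change −0.38, SE 0.11, limma adjusted p = 0.00802, or 0.136 without control replicate 2). MRPL46, of the central protuberance, held 3.37 and 2.80 CPM, then 2.61 and 1.52, and 1.22 and 1.19 (log2 change −0.66, SE 0.23, limma adjusted p = 0.0197). Like MRPS33, it was called in colony 2 (−0.89, limma adjusted p = 0.00843) and not in colony 1 (−0.44, limma adjusted p = 0.199). Another gene on the same strand shares 45.4% of its exon bases, so its values are uncertain. The knockdown libraries were all below the controls, but the level was low, and the adjusted p was 0.151 without control replicate 1 and 0.0779 without colony 1 replicate 2. Calls remained in each of the 6 fits that left out a library for 11 of the 27 genes, 8 of them higher and 3 lower. These were the 8 rises described above, MRPS18A, MRPS6 and MRPL49.

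MRPS36, reassigned from the mitoribosome, varied within groups. It held 15.6 and 22.2 CPM in the controls, compared with 21.2 and 28.0 for colony 1 and 19.6 and 22.9 for colony 2, so that the groups overlapped. The change was not called (0.27, SE 0.14, limma adjusted p = 0.11), though it was with the replicate block (adjusted p = 0.0263) and without control replicate 2 (0.00812) or colony 1 replicate 1 (0.0247).

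MRPL and MRPS genes were then set side by side. Of 47 MRPL genes, 11 were higher and 4 lower, with a median log2 change of 0.08. Of 27 MRPS genes, 7 were higher and 5 lower, with a median of 0.12. Over all tested genes, 23.2% were higher and 21.5% lower, with a median of 0.005. Assigned by structure, 12 of 49 large subunit genes were higher and 5 lower, and 6 of 24 small subunit genes were higher and 4 lower, with medians of 0.08 and 0.12 as before. Both groups spread on either side of 0 and overlapped over most of their range, as the plot of changes by subunit shows. No difference between them was tested. With the replicate block the MRPS rises were 11, and over all genes 26.6% were then higher. Without control replicate 1 the MRPL rises were 5 and the MRPS rises 4, and without control replicate 2 the falls were 2 in each.

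**Figure D4:**
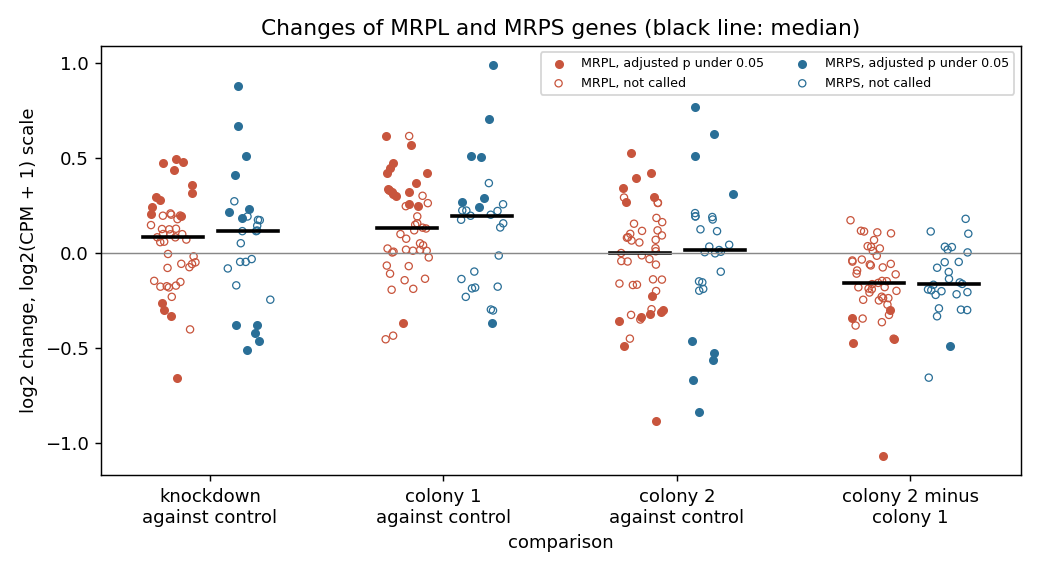
Log2 change of each tested MRPL (orange) and MRPS (blue) gene in 4 comparisons, filled where the adjusted p was under 0.05, with the median as a black line. The medians of the 2 groups lie close together in each comparison, and both lie below 0 for colony 2 minus colony 1 (−0.16 each).

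Summed over the 76 genes, the mRNA made up 0.299% and 0.316% of all CPM in the controls, compared with 0.341% and 0.355% for colony 1 and 0.312% and 0.331% for colony 2. Colony 1 lay above the controls and colony 2 overlapped with them. Between libraries with the same replicate number, the summed CPM of the colony lay above that of the control in 4 of 4 pairs. It was 115% and 113% of the control in colony 1 and 103% and 103% in colony 2, with the same controls used for both colonies. An exact permutation test of the sum without the pairing, made two-sided by doubling the smaller tail, gave p = 0.267. With 2 libraries against 4, and so 15 splits, this doubled p cannot go below 0.133 and cannot reach the threshold. The test takes libraries and not colonies as its units. The ratio of summed MRPL to summed MRPS CPM was 1.58 and 1.63 in the controls, compared with 1.51 and 1.51 for colony 1 and 1.47 and 1.49 for colony 2. Every knockdown library was below both controls (exact permutation p = 0.133 with the smaller tail doubled, the smallest that this doubled test allows). MRPS10 alone made up 9.13% and 8.65% of the MRPS sum in the controls and 14.01% to 15.1% after knockdown. Without it the ratios were 1.74 and 1.79 in the controls, compared with 1.78 and 1.77 for colony 1 and 1.71 and 1.74 for colony 2, and the groups overlapped. The sums of MRPL and MRPS without MRPS10 were 2822 and 2981 CPM in the controls. They were 3150 and 3290 CPM for colony 1, and 2856 and 2988 CPM for colony 2, little above the controls of the same number.

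**Figure D5:**
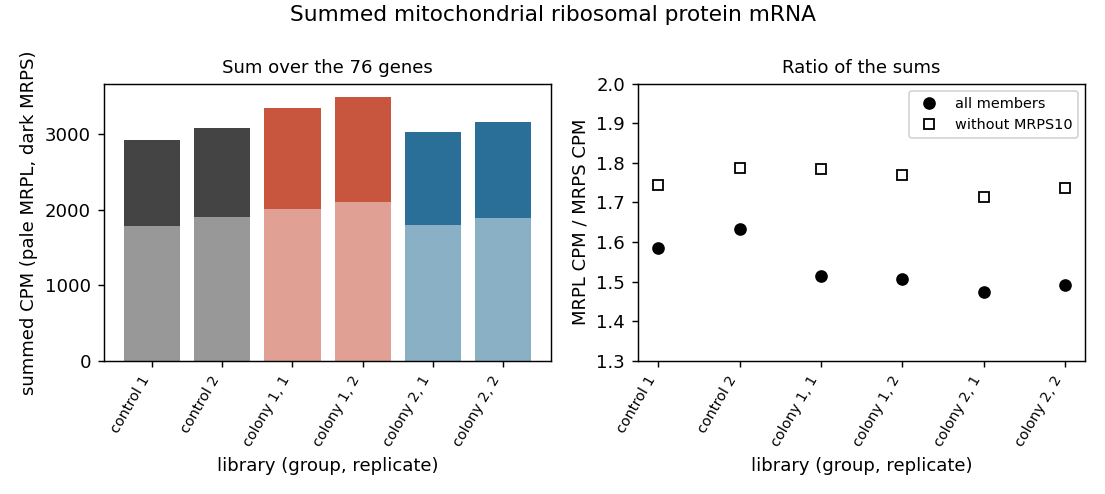
Left, CPM summed over the 76 genes in each library, with MRPL pale and MRPS dark. Right, the ratio of the MRPL to the MRPS sum with all genes (filled circles) and without MRPS10 (open squares), on an axis that does not start at 0. The filled circles of the knockdown libraries lie below those of the controls, and the open squares of the groups overlap.

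The genes were also grouped by the origin and place of their proteins. Of 28 large subunit genes with bacterial counterparts, 10 were higher and 2 lower (median log2 change 0.08), and of 21 mitochondria-specific ones 2 were higher and 3 lower (median 0.10), where 23.2% of all genes were higher and 21.5% lower. The first count of rises was 5 without control replicate 1, and the difference between the classes was not tested. In the small subunit, 3 of 14 genes with bacterial counterparts were higher and 3 lower, and 3 of 10 mitochondria-specific ones were higher and 1 lower. None of the last 3 rises was called without control replicate 1 or without control replicate 2. Around the peptide exit tunnel, through which new proteins leave, 3 of 7 genes were higher, MRPL17, MRPL24 and MRPL47, and none was lower. Of 4 neighbours of the peptidyl transferase centre, where peptide bonds form, MRPL3 was higher (0.36) while MRPL16 (−0.33) and MRPL27 (−0.30) were lower. In the central protuberance MRPL18 was higher and MRPL46 lower, and in the stalk that recruits translation factors 1 of 5, MRPL11, was higher. In the head of the small subunit MRPS10 and MRPS35 were higher while MRPS33 and MRPS14 were lower, of 7 tested. No structural region moved in 1 direction as a whole. Without control replicate 1 the adjusted p was 0.0812 for MRPL17, 0.205 for MRPL24, 0.271 for MRPL47, 0.192 for MRPL3, 0.487 for MRPL11 and 0.0905 for MRPS35. Without control replicate 2 it was 0.0689 for MRPL24, 0.203 for MRPL27, 0.0799 for MRPS14 and 0.136 for MRPS35. All of these except MRPL17, MRPL3 and MRPL27 also lost the call without at least 1 library of the colonies, with an adjusted p of up to 0.229 for MRPL24 (without colony 2 replicate 2).

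Next, each colony was set against the same controls. In colony 1, 22 of the 74 genes were higher and 2 lower, where 21.1% of all tested genes were higher and 18.3% lower, and the median log2 change was 0.15. In colony 2, 10 were higher and 13 lower, where 20.5% and 19.8% of all genes were, and the median was 0.008. With the replicate number as a block the falls in colony 1 were 6 and the rises 31, where 22.1% of all genes were then lower and 24.7% higher. Among MRPL genes, 15 were higher and 1 lower in colony 1, and 6 were higher and 8 lower in colony 2. Among MRPS genes, 7 were higher and 1 lower in colony 1, and 4 were higher and 5 lower in colony 2. With the block the MRPS counts in colony 1 were 13 higher and 4 lower, and the MRPL falls there 2. The rises in colony 1 numbered 11 without control replicate 1 and 11 without colony 1 replicate 2, and its falls 1 without either control. In colony 2 the rises numbered 6 without control replicate 1, and the falls 7 without control replicate 2.

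Called higher in each colony were MRPS10, MRPS30, MRPS16, MRPL4, MRPL18, MRPL36, MRPL9, MRPL17 and MRPS11, and called lower in each were MRPS18A and MRPL16. No gene of the 74 was called in opposite directions. The largest rises in colony 1 were those of MRPS10 (0.99), MRPS30 (0.71) and MRPL18 (0.62), and in colony 2 those of MRPS10 (0.77), MRPS30 (0.63) and MRPL36 (0.53). The largest falls in colony 2 were those of MRPL46 (−0.89), MRPS28 (−0.84) and MRPS6 (−0.67). MRPS28, a mitochondrial small subunit protein, held 5.01 and 7.51 CPM in the controls, compared with 6.03 and 4.65 for colony 1 and 3.59 and 2.49 for colony 2. Another gene on the same strand shares 42.0% of its exon bases, so its values are uncertain. Both libraries lay below both controls in colony 2 and not in colony 1, and this fall (limma adjusted p = 0.00515) was no longer called without control replicate 2 (0.105) or colony 2 replicate 2 (0.0808). For MRPL46 in colony 2 the adjusted p was 0.0631 without control replicate 1. The fall of MRPS18A in colony 1 (limma adjusted p = 0.0113) was not called without control replicate 1 (0.112) or colony 1 replicate 2 (0.0825). In colony 1 the adjusted p was 0.0943 for MRPL16 and 0.0694 for MRPL36 without control replicate 2, and 0.163 for MRPL17 without control replicate 1. In colony 2 it was 0.289 for MRPL16 without colony 2 replicate 1, 0.174 for MRPL17 without colony 2 replicate 2 and 0.0909 for MRPL18 without control replicate 1.

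The colonies were also compared directly, which the controls do not enter other than through the pooled spread. Of the 74 genes, 6 were lower in colony 2 and none higher, where 1.65% of all tested genes were lower and 0.629% higher. At an unadjusted p under 0.05 by limma, 21 were lower and 0 higher. The share of all genes at that threshold was not counted, so these 2 counts cannot be set against it and nothing is read from them. The median log2 difference was −0.16, and 57 of the 74 lay below 0, as did 51.0% of all tested genes. With the replicate number as a block, 14 were lower, as were 4.94% of all tested genes. The count of 6 fell to 1 without colony 1 replicate 2 or colony 2 replicate 1, and to 3 without colony 2 replicate 2.

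The 6 genes were MRPL12, MRPS6, MRPL21, MRPL41, MRPL2 and MRPL14. MRPL12, the protein of the stalk, held 3.06 and 3.003 CPM in the controls, compared with 4.93 and 5.45 for colony 1 and 1.22 and 2.92 for colony 2. It lay above the controls in colony 1 and below them in colony 2, where replicate 2 was close to them. The difference between the colonies was −1.07 (SE 0.26, limma adjusted p = 0.0206), on 15 to 54 reads per library. Against control, its change in colony 1 was not called (0.62, limma adjusted p = 0.0571, or 0.0261 with the replicate block). Its change in colony 2 was not called either (−0.45, limma adjusted p = 0.165). The call between the colonies was lost without colony 2 replicate 1 (difference −0.66) or colony 1 replicate 2 (difference −1.01). MRPL21, a protein with a bacterial counterpart, held 36.9 and 37.4 CPM, then 40.8 and 52.4 in colony 1, and 31.4 and 34.7 in colony 2 (difference −0.48, SE 0.12, limma adjusted p = 0.0231). It rested on colony 1 replicate 2, without which the difference was −0.30 (limma adjusted p = 0.418), and the adjusted p was 0.236 without colony 2 replicate 1. MRPL41, a mitochondria-specific protein of the large subunit, held 57.5 and 58.1 CPM, then 79.8 and 75.8, and 59.3 and 53.8 (difference −0.45, SE 0.09, limma adjusted p = 0.00299). Colony 1 alone stood apart for MRPL41, and the adjusted p was 0.0892 without colony 2 replicate 2. For MRPS6, each colony lay below the controls, and colony 2 alone was called against them. Its difference between the colonies was −0.49 (SE 0.11, limma adjusted p = 0.0089). The call was lost without colony 1 replicate 2 (difference −0.48) or colony 2 replicate 1 (difference −0.47).

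Genes that act with the mitoribosome were counted in the comparison of both colonies with control, where 23.2% of all tested genes were higher and 21.5% lower. Of 7 genes listed as mitoribosomal proteins with other symbols, AURKAIP1 was higher (0.30, limma adjusted p = 0.00252) and LACTB was lower (−0.46, limma adjusted p = 0.00013). The call of AURKAIP1 rested on control replicate 2, without which its change was 0.20. LACTB is on the list but is better known as a filament-forming protein of the intermembrane space. Its fall is therefore not read as that of a mitoribosomal protein. Of 28 genes of mitoribosome assembly and rRNA modification, 8 were higher and 1 lower. The assembly GTPase MTG1 held 6.64 and 4.80 CPM in the controls, compared with 9.75 and 11.2 for colony 1 and 10.4 and 11.6 for colony 2 (log2 change 0.82, SE 0.16, limma adjusted p = 0.00017). Every knockdown library was above both controls. MPV17L2, another assembly factor, was higher too (0.56, limma adjusted p = 0.00115), and the acyl carrier protein NDUFAB1 was lower (−0.25, limma adjusted p = 0.0313, or 0.253 without control replicate 2, 0.0779 without colony 1 replicate 2 and 0.116 without colony 2 replicate 2).

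Of 16 mitochondrial translation factors, 4 were higher and 1 lower, where 23.2% of all tested genes were higher and 21.5% lower. MTRES1, a mitochondrial RNA-binding protein, was higher (0.47, limma adjusted p = 0.0208, or 0.311 without control replicate 1, 0.0548 without colony 1 replicate 2 and 0.0652 without colony 2 replicate 2). GUF1, the mitochondrial counterpart of the bacterial elongation factor LepA, was higher as well (0.41, limma adjusted p = 0.000572). SLIRP, which binds and stabilises mitochondrial mRNAs, was lower over both colonies (−0.32, limma adjusted p = 0.00377, or 0.119 without control replicate 2 and 0.52 with the 4 knockdown libraries as 1 group). It held 63.4 and 74.1 CPM in the controls, compared with 67.8 and 76.9 for colony 1 and 38.6 and 44.4 for colony 2. Colony 2 alone was low, and its difference from colony 1 was called (−0.79, limma adjusted p = 2.34e-05). Of 24 genes of mitochondrial DNA transcription and RNA processing, 7 were higher and 2 lower. The transcription factor TFB2M held 10.9 and 9.81 CPM in the controls, compared with 20.1 and 19.0 for colony 1 and 20.1 and 20.8 for colony 2 (log2 change 0.89, SE 0.12, limma adjusted p = 1.55e-06). The mitochondrial RNA polymerase POLRMT was higher as well (0.49, limma adjusted p = 8.74e-05), and FASTKD5, which takes part in processing of mitochondrial transcripts, was lower (−0.39, limma adjusted p = 0.00614, or 0.0588 without control replicate 2).

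The RNA of the mitoribosome is itself encoded in mitochondrial DNA. MT-RNR2, the rRNA of the large subunit, was lower in knockdown (−0.38, SE 0.04, limma adjusted p = 2.75e-08), while MT-RNR1, that of the small subunit, was not called over both colonies (0.04, limma adjusted p = 0.758). MT-RNR1 held 640 and 689 CPM in the controls, compared with 577 and 594 for colony 1 and 695 and 902 for colony 2. The colonies lay on opposite sides of the controls (−0.18 and 0.25), neither called (limma adjusted p = 0.154 and 0.0509), though both were with the replicate block (0.00264 and 4.17e-05). Colony 2 minus colony 1 was called (0.44, limma adjusted p = 0.0335), but not without any 1 of the libraries other than colony 2 replicate 1, with an adjusted p of up to 0.215 (without colony 1 replicate 1). Library preparation started from mRNA, so these values may not follow the amount of rRNA in the cell. Of 31 genes of mitochondrial protein import and processing, 10 were higher and 4 lower, where 23.2% of all tested genes were higher and 21.5% lower. The import chaperone TIMM10 (0.77, limma adjusted p = 4.92e-06) and DNAJC19 (0.76, limma adjusted p = 8.09e-06) led the rises, and PMPCA, a subunit of the processing peptidase, led the falls (−0.54, limma adjusted p = 1.89e-06).

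Of 18 regulators of nuclear genes for mitochondria, 9 were higher and 4 lower, where 23.2% of all tested genes were higher and 21.5% lower. The coactivator PPARGC1A held 11.6 and 12.2 CPM in the controls, compared with 5.33 and 5.15 for colony 1 and 3.91 and 4.76 for colony 2. All knockdown libraries lay below both controls, and the log2 change was −1.17 (SE 0.17, limma adjusted p = 2.86e-06). For the factors whose motif cores were searched above, YY1 was higher (0.59, limma adjusted p = 1.29e-08), NRF1 was higher (0.40, limma adjusted p = 0.00782, or 0.0502 without control replicate 1), and GABPA (0.08, limma adjusted p = 0.382) and SP1 (0.10, limma adjusted p = 0.219) were not called. These 4 are given for their motifs and not for the size of their change. Among the 79 tested proteins of the cytosolic ribosome, 5 were higher and 23 lower over both colonies. Of these 79, 37 were lower and 1 higher in colony 2 than in colony 1, where 1.65% of all tested genes were lower and 0.629% higher. RPS29 held 151 and 148 CPM in the controls, compared with 170 and 142 for colony 1 and 50.9 and 67.9 for colony 2. Colony 2 alone was low, and the call over both colonies (−0.64, limma adjusted p = 0.000121) was lost with the 4 knockdown libraries as 1 group (0.47). RPS15A was lower too (−0.52, limma adjusted p = 0.00372, or 0.222 without control replicate 2 and 0.0882 with 1 knockdown group), with changes of −0.18 in colony 1 and −0.86 in colony 2. RPLP1 was the largest rise (0.25, limma adjusted p = 0.000981, or 0.0554 without control replicate 2).

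Many of the genes share a start region with a neighbour. For 25 of the 76, the start of a gene on the opposite strand lies in a head-to-head arrangement at most 1000 bases away, and for 23 of these both genes were tested. Of the 23, the member was called in 10 and the partner in 12, where 44.7% of all tested genes were called. Both genes were called in 6 of the 23 and moved in the same direction in 2. MRPL47 and NDUFB5, a subunit of complex I, both rose (0.30 each), and MRPL49 and FAU, which encodes a protein of the cytosolic small ribosomal subunit, both fell (−0.26 and −0.45). FAU was low in colony 2 (−0.84, limma adjusted p = 3.49e-07) and not called in colony 1 (−0.07, limma adjusted p = 0.609), the colonies differed (−0.77, limma adjusted p = 3.31e-05), and with the 4 knockdown libraries as 1 group its fall was not called (0.369). MRPS11 and MRPL46, whose starts are 34 bases apart, moved in opposite directions (0.41 and −0.66) and count for 2 of the 6, once from each gene. The remaining called pairs were also opposed, MRPL27 (−0.30) with EME1 (0.75), which encodes a nuclease subunit, and MRPL41 (0.20) with PNPLA7 (−0.66). MRPL18 rose beside TCP1, a subunit of the cytosolic chaperonin, whose change was −0.03 (limma adjusted p = 0.709). Without control replicate 1 the rises of NDUFB5 (limma adjusted p = 0.135), MRPL47 (0.271) and MRPL41 (0.138) and the fall of MRPL46 (0.151) were not called, nor was the fall of MRPL27 without control replicate 2 (0.203).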

How the data were processed

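Messenger RNA was converted to cDNA with random primers and sequenced, per the labels' protocols. The authors deposited CPM, after trimming with Trim Galore and alignment with HISAT2, steps listed per the submitters' processing notes beside the builds hg38 and mm10. The counting program, its annotation, its use of strand and the tool versions are not given in these sources. Of 52142 rows, 15200 without a symbol (2.50% to 2.62% of CPM) and 10 that share 5 symbols were left out, leaving 36932.

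The 13675 genes that averaged 1 CPM or more were fitted as log2(CPM + 1) with limma-trend 3.58.1 (R 4.3.3, statmod 1.5.0, robust spread over 3 groups), so log2 changes of low genes are understated. The comparisons were control subtracted from both colonies together or from either one, and colony 1 subtracted from colony 2, two-sided, with Benjamini-Hochberg adjustment over all 13675 genes and calls under 0.05. A count test had been planned in case the files held counts, and the test for CPM was used. The fit was tested on simulated data first. Same-numbered replicates deviated together from their group means (correlations of 0.119, 0.128 and 0.159 over the tested genes), so a fit with the replicate number as a block was also run. Other alternatives were another normalization, pseudocounts and filters, 4 knockdown libraries as 1 group, and leaving out each library. All 76 genes matched GENCODE release 29, from which positions and exon overlap came, and promoters came from RefSeq on GRCh38.p14.

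The genes and lists were chosen with earlier results of these data known. Named were DDX18, genes reassigned by structure, the largest called changes of each comparison (8 per direction with all knockdown libraries beyond both controls, 3 for each colony, 4 between colonies), the 3 highest and 3 lowest per kilobase, untested genes, and from each list the 2 largest called changes and the largest opposite one. Other genes named (MRPL2 and MRPL14 between the colonies, called genes of the structural regions, and head-to-head partners) were chosen after their values were seen.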

Additional observations from a re-analysis of the deposited data

Results flagged for a closer look

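Of the 74 tested genes, 6 had changes from control that differed between colony 1 and colony 2 by limma's test of that difference. They were MRPL12 (−1.07), MRPS6 (−0.49), MRPL21 (−0.48), MRPL41 (−0.45), MRPL2 (−0.34) and MRPL14 (−0.30), all lower in colony 2. MRPL2, a protein near the peptidyl transferase centre, held 75.1 and 76.4 CPM in the controls, compared with 70.9 and 82.9 for colony 1 and 62.6 and 58.3 for colony 2 (limma adjusted p = 0.0412). Both libraries of colony 2 lay below both controls, and the adjusted p was 0.461 without colony 1 replicate 2, 0.102 without colony 2 replicate 1 and 0.285 without colony 2 replicate 2. MRPL14 held 103 and 104 CPM in the controls, compared with 106 and 112 for colony 1 and 93.5 and 83.8 for colony 2 (limma adjusted p = 0.0425). It too was below the controls in colony 2 alone, and the adjusted p ranged from 0.0615 to 0.398 without any 1 library of the colonies. With no filter on low values, more genes are tested, and MRPL2 (0.0538) and MRPL14 (0.0614) were not called. Over the cytosolic ribosomal proteins, 37 of 79 were lower in colony 2 than in colony 1 in the same test, as were 1.65% of all tested genes. Colony 1 replicate 2 and colony 2 replicate 1 decided 5 of the 6 calls each. The part of these libraries, or of the colony itself, in the differences was not tested.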

How the results depend on the processing

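Over the alternatives, 162 counts and medians stayed within 1.5 times their value or within the spread between replicates, and 18 did not. None of the named genes changed direction with a call on both sides. The replicate block raised the falls in colony 1 to 6 and those of colony 2 minus colony 1 to 14, and left the other counts over all 74 genes within 1.5 times. Among MRPS genes alone it raised the rises from 7 to 11 for knockdown and from 7 to 13 in colony 1. It added 11 calls for knockdown, 13 for colony 1, 7 for colony 2 and 8 between the colonies, and removed none.

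Leaving out each library in turn gave 9 to 16 rises and 4 to 10 falls over both colonies, 11 to 22 rises and 1 to 2 falls in colony 1, and 6 to 13 rises and 7 to 13 falls in colony 2. Between the colonies it gave 1 to 7 genes lower in colony 2. The median of MRPS genes ranged from 0.0107 to 0.164 over both colonies, from −0.0563 to 0.0863 in colony 2 and from −0.197 to −0.0924 between the colonies, and the median of MRPL genes in colony 2 from −0.0733 to 0.0514. The cause was not tested. Where a group keeps 1 library, its spread is assumed to be that of the others. With the 4 knockdown libraries as 1 group, 8 of 27 calls were lost, among them MRPS28, MRPL27 and MRPL41, and with no filter on low values 6 were, MRPS28 and MRPL41 included.

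Scaling factors from a trimmed mean of M values lay between 0.995 and 1.003. All CPM values were whole multiples of the smallest step of their library, but no count test was run on reads derived from these steps. For genes of a few CPM, such as MRPL46 and MRPL12, fewer than 60 reads per library limit what can be detected.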
